A study of Homo sapiens with 6 samples.

Results

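A group of annotated miR names resembles other small structured RNAs, and their counts were followed in HEK293T cells after RPL24 KD. The members were taken by exact match of the miR name, which found 9 of the 2588 mature miRs listed: hsa-miR-1246 and hsa-miR-1290 (U2 snRNA), hsa-miR-1260a, hsa-miR-1260b and hsa-miR-4286 (grouped here with tRNA), and hsa-miR-664a-3p, hsa-miR-664a-5p, hsa-miR-1248 and hsa-miR-1291 (snoRNA). HEK293T is a human embryonic kidney cell line. It received 50 nM of siPOOLs, mixtures of many siRNAs, against RPL24 (RPL24 KD, 3 libraries) or non-targeting siPOOLs (NC, 3 libraries), and was harvested 72 h later. The labels also describe for both groups a transfection at 48 h with a plasmid for miR-608, but the paper presents the sequencing as a separate experiment, and it is unclear if these cells received the plasmid. RPL24 is a protein of the large ribosomal subunit, and the study asked whether its depletion alters miR levels. Small RNA libraries do not measure RPL24 mRNA, so the depletion was not checked in them. In each group, libraries 1 and 2 are numbered as in the labels, and the third is called unnumbered because its number matches no label. The labels do not say that the replicates came from separate cultures, so p-values measure at most the spread between these libraries.

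A miR is cut from a hairpin transcript by Drosha and Dicer and guides Argonaute to mRNAs that pair with its seed, bases 2 to 8. U2 snRNA is a spliceosomal RNA that pairs with the branch point of introns. H/ACA snoRNAs, such as those of the SNORA genes, guide pseudouridylation, and tRNAs carry amino acids to the ribosome. Fragments of these abundant RNAs can have the length of a miR and enter a small RNA library. A count under one of these names therefore does not tell which RNA the read came from, and the source of the reads was not tested here.

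The mature sequences are shown because the resemblance to structured RNAs can be read from them only in part of the group. RefSeq sequences (GRCh38.p14) were found for 8 of the 9 names. They are written 5′ to 3′ with the seed in capitals.
hsa-miR-1246: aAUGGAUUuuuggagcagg
hsa-miR-1290: uGGAUUUUuggaucaggga
hsa-miR-1260a: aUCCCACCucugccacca
hsa-miR-1260b: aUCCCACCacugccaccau
hsa-miR-664a-3p: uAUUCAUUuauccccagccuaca
hsa-miR-664a-5p: aCUGGCUAgggaaaaugauuggau
hsa-miR-1248: aCCUUCUUguauaagcacugugcuaaa
hsa-miR-1291: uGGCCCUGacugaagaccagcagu

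Hsa-miR-1260a and hsa-miR-1260b share the seed UCCCACC. Counted from the 5′ end, they differ by the substitution U9A, and hsa-miR-1260b has 1 more base at its 3′ end. How reads that fit both were counted is not stated. It is therefore uncertain whether such reads were divided between the names or counted under each. Among the tested miRs, hsa-miR-365a-3p and hsa-miR-365b-3p held equal values, each with a mean of 66.2 counts. How their reads were counted was not tested. No other pair among the 8 members with a sequence shares a seed.

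All 19 bases of hsa-miR-1246 occur in U2 snRNA. The windows of the U2 genes RNU2-1 (chr17:43233861-43233888, minus strand) and RNU2-2P (chr11:62841693-62841720, minus strand) of GRCh38 are shown as DNA, 5′ to 3′, with the bases shared with hsa-miR-1246 in capitals.
RNU2-1: attaAATGGATTTTTGGAGCAGGgagat
RNU2-2P: attaAATGGATTTTTGGAaataggagat

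The shared run covered bases 94 to 112 of RNU2-1, and only the first 14 bases were shared with RNU2-2P. The whole sequence was found in 19 annotated snRNA transcripts, 7 of them named RNU2 and 12 named RF00004, a family name for U2. Hsa-miR-1290 shared a run of 12 bases with U2, its first 12, so it was not an exact match. The hairpin gene MIR1246 lies on the minus strand of chromosome 2, from 176600980 to 176601052, and overlaps no annotated structured RNA gene. MIR1290 lies on the minus strand of chromosome 1, from 18897071 to 18897148, intronic in 4 transcripts of ALDH4A1.

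For the snoRNA names, the hairpin itself overlaps a snoRNA gene. MIR664A (chromosome 1, 220200538 to 220200619, minus strand) overlaps SNORA36B by 74 nt within an intron of RAB3GAP2. MIR1248 (chromosome 3, 186786672 to 186786777, plus strand) overlaps SNORA81 by 103 nt in EIF4A2, intronic in 11 transcripts and exonic in 2. MIR1291 (chromosome 12, 48654444 to 48654530, minus strand) overlaps SNORA2C by 75 nt within an intron of KANSL2. The 4 mature miRs lie wholly inside these snoRNAs, and hsa-miR-1248 begins at the first base of SNORA81. Among the 2281 miR names with a RefSeq sequence, 13 (0.57%) had an exact match in the 5217 structured RNA transcripts searched, 5 of them members. These transcripts held mitochondrial but no nuclear tRNAs, so the resemblance of hsa-miR-1260a and hsa-miR-1260b to tRNA was not checked by sequence. By position, the hairpin genes MIR1260A, MIR1260B and MIR4286 overlap no annotated tRNA gene or other structured RNA gene.

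**Figure D1:**
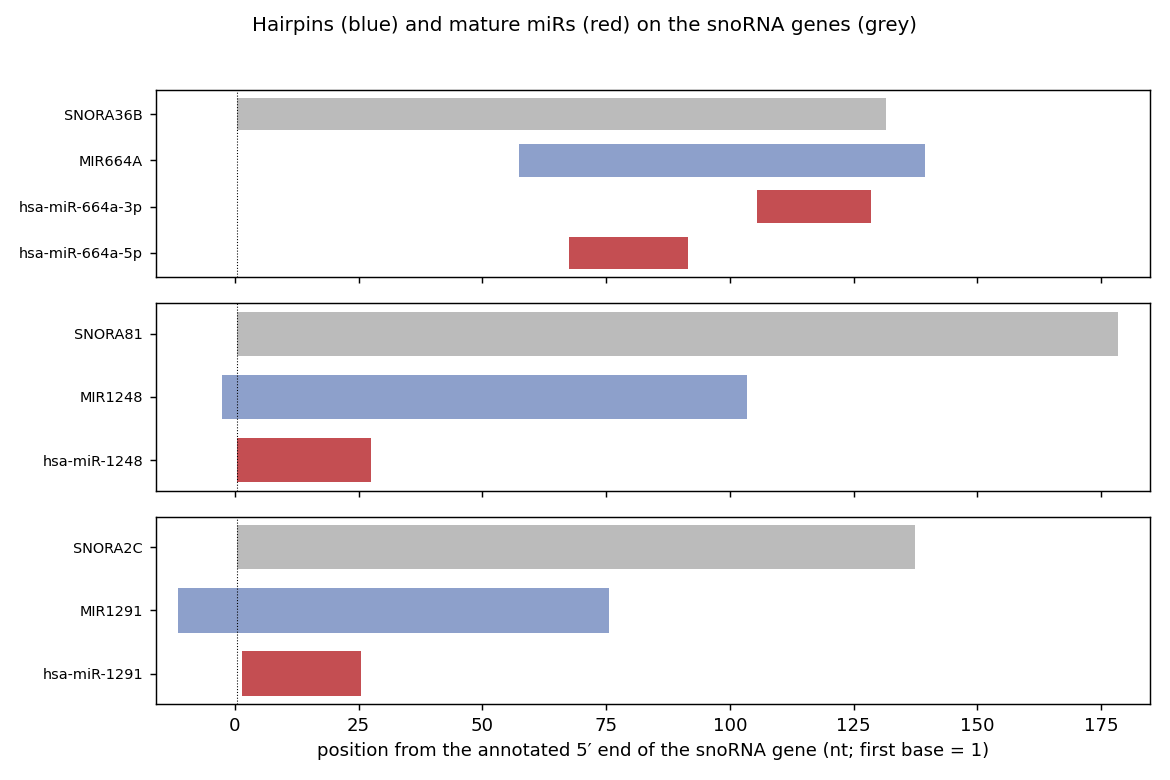
Position along each snoRNA gene in nt from its annotated 5′ end (grey, snoRNA; blue, hairpin; red, mature miR). The mature miRs lie inside the snoRNAs, and the hairpins extend past one end.

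The 6 libraries held from 398721 to 611745 counts, and 1205 miRs had at least 1 read. Levels are in CPM, relative to each library's counts in the miRs that passed edgeR's low-count filter, scaled by TMM normalization. A floor of 3 counts was applied, equal to 4.99 to 7.52 CPM depending on the library. The floors, and the intervals of shares of counts, cover counting error only, while the intervals of log2 fold changes come from edgeR's fit and include the spread between libraries. After edgeR's low-count filter 360 miRs were tested, among them 3 of the 9 members: hsa-miR-1246, hsa-miR-1260b and hsa-miR-4286. Of all tested miRs, 21 (5.83%) were DE at an adjusted p under 0.05 by edgeR's quasi-likelihood test (Benjamini-Hochberg), 11 higher and 10 lower after RPL24 KD. With total counts in place of TMM, the split was 11 higher and 21 lower. None of the members was DE (0 of 3), and 1 of the 3, hsa-miR-1246, had an unadjusted p under 0.05, as did 78 of the 360 tested miRs. Limma-voom called 0 of the 3 members, and DESeq2 called 0 of 2 and gave hsa-miR-1246 no p-value. Hsa-miR-1246 was called by edgeR's quasi-likelihood test (Benjamini-Hochberg) without a filter on low counts (adjusted p = 3.33e-84). The same test called it in the 4 numbered libraries with the replicate number as a block (adjusted p = 7.82e-17) and without it (adjusted p = 0.00075). The standard error of its log2 fold change was 0.11 without the filter and 0.13 with the block, against 0.89 in the main fit. Such small errors do not reflect the spread of its counts between libraries. The p-values without the filter and with the block are therefore no evidence of a change. The block combined opposite changes. RPL24 KD 1 had 653 CPM against 196 in NC 1, but RPL24 KD 2 had 419 against 6364 in NC 2. The groups did not overlap in 27.5% of the tested miRs and in 0 of the 3 members.

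The members spanned a wide range of abundance. Hsa-miR-1246 had a mean of 605 counts per library, hsa-miR-1260b 128 and hsa-miR-4286 19.8. The other members had means of 6 counts or fewer. Hsa-miR-664a-5p (2 to 8 counts), hsa-miR-664a-3p (3 to 12) and hsa-miR-1260a (2 to 13) overlapped in their ranges and were not separated in this order, as were hsa-miR-1291, hsa-miR-1248 and hsa-miR-1290, with 0 to 3 counts. The ranges of hsa-miR-1246 and hsa-miR-1260b overlapped too.

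**Figure D2:**
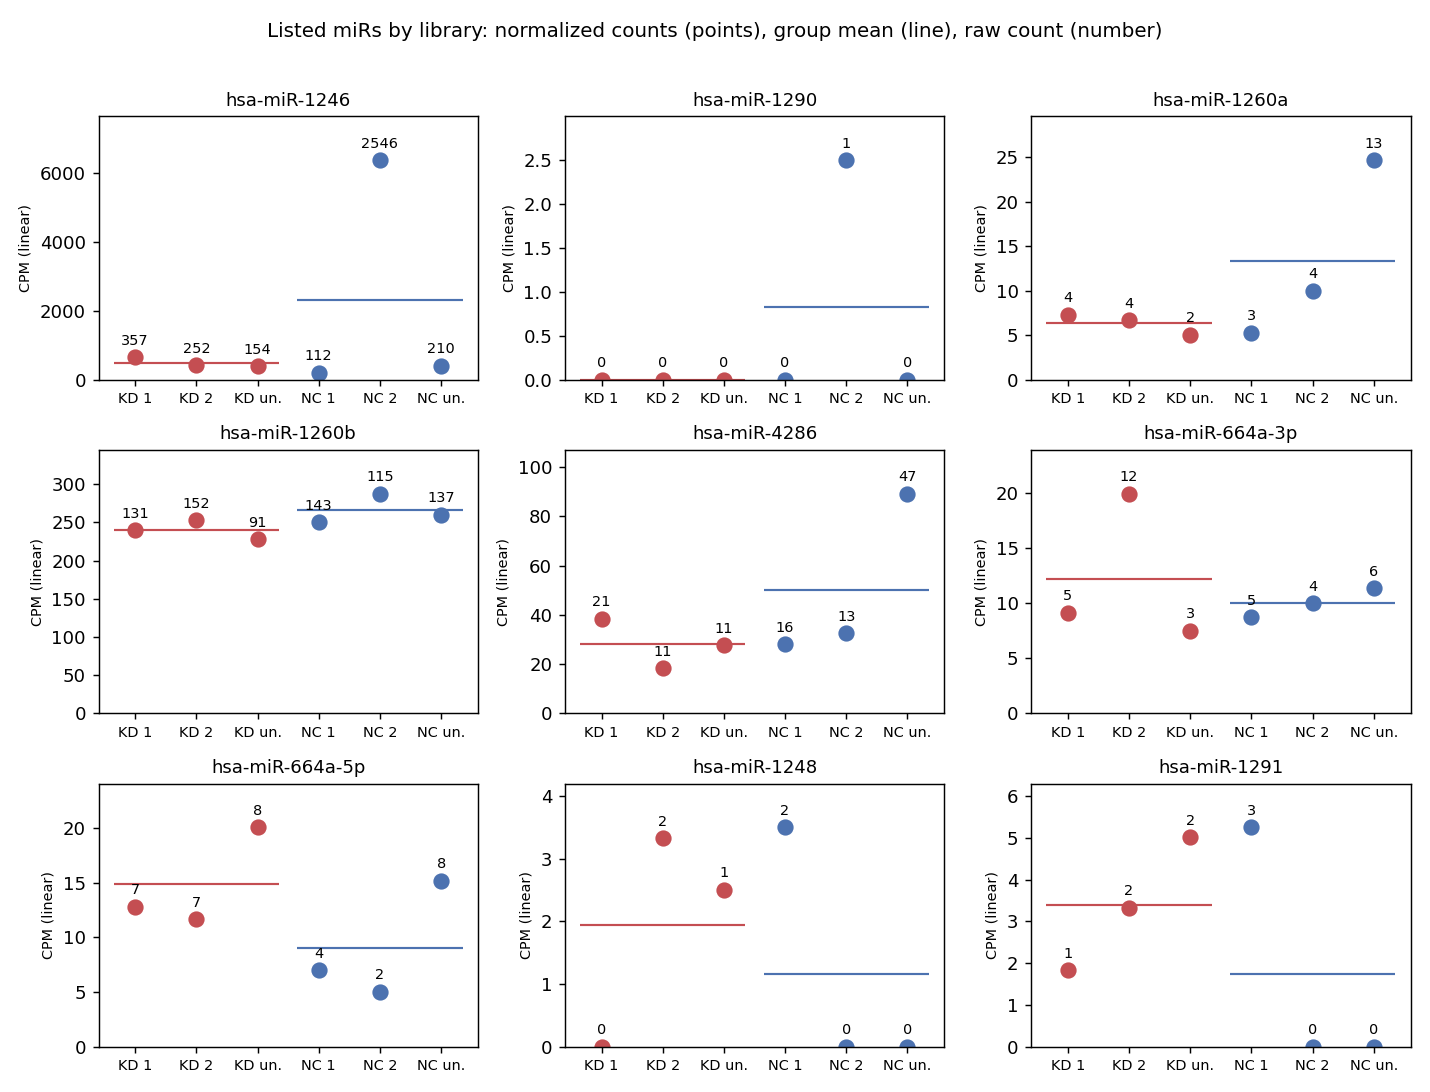
Normalized counts in CPM (points, linear axes from 0) of each member in the 3 RPL24 KD (red) and 3 NC (blue) libraries, with group means (lines) and raw counts (numbers); un., unnumbered. Hsa-miR-1246 reached 2546 counts in NC 2 and 112 to 357 in the other libraries.

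Hsa-miR-1246 was set by a single library. It had 653, 419 and 386 CPM in RPL24 KD 1, 2 and unnumbered, and 196, 6364 and 398 CPM in NC 1, 2 and unnumbered. NC 2 stood far above all others, while the remaining NC libraries lay within or below the RPL24 KD range. The raw counts were 357, 252 and 154 after RPL24 KD and 112, 2546 and 210 in NC. It made up 0.639% of the counts of NC 2 (exact 95% interval 0.614% to 0.664%) and between 0.0198% and 0.0639% of those of the other libraries. The intervals of the other libraries reached at most 0.0709%.

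The value in NC 2 was 9.75 times that in the next library, number 1 of the 360 tested miRs, for which the median of this ratio was 1.07. The coefficient of variation over the NC libraries was 151%, also number 1, against a median of 12.3%. The chi-square per degree of freedom against counting noise was 2829 in NC and 22.1 in RPL24 KD. Both groups thus varied by more than counting error, NC by far the more.

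The group means of hsa-miR-1246 were 486 ± 145 CPM in the RPL24 KD libraries (SD, n = 3) and 2320 ± 3505 CPM in the NC libraries (SD, n = 3), while the medians were 419 and 398 CPM. The log2 fold change was -2.24 (standard error 0.89, adjusted p = 0.158, edgeR quasi-likelihood test, Benjamini-Hochberg adjusted), so the difference did not pass the threshold. Without NC 2 the direction turned: the log2 fold change was 0.77 and was called (adjusted p = 0.0409, same test), although the groups still overlapped. Without NC 1 it was -2.79 (adjusted p = 0.00349) and without the unnumbered NC library -2.73 (adjusted p = 0.00474), both called by the same edgeR test with Benjamini-Hochberg adjustment. No direction of change can be given for hsa-miR-1246 from these libraries.

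Hsa-miR-1290, the other U2-like name, had 1 count in NC 2 and 0 in the other 5 libraries. Both groups were under the floor and no fold change is given.

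NC 2 was not high in all miRs. It was the highest library for 84 of the 360 tested miRs, as the unnumbered NC library was for 86, and in 2 of those 84 it was at least 2 times the next library. These were hsa-miR-1246 and hsa-miR-143-3p, a miR typical of smooth muscle and other mesenchymal cells. Hsa-miR-143-3p was also the tested miR whose pattern was most like that of hsa-miR-1246, with a root mean square difference of 0.79 between centred log2 CPM over the 6 libraries. Its counts were 11, 15 and 14 after RPL24 KD and 5, 50 and 18 in NC. Hsa-miR-100-5p (1.28) and hsa-miR-4664-3p (1.32) came next, and both were highest in NC 2. A miR with equal levels in all libraries would have a difference of 1.59, so the likeness of these 2 was slight. The part of NC 2 as a library in the result of hsa-miR-1246 was not tested beyond leaving it out.

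**Figure D3:**
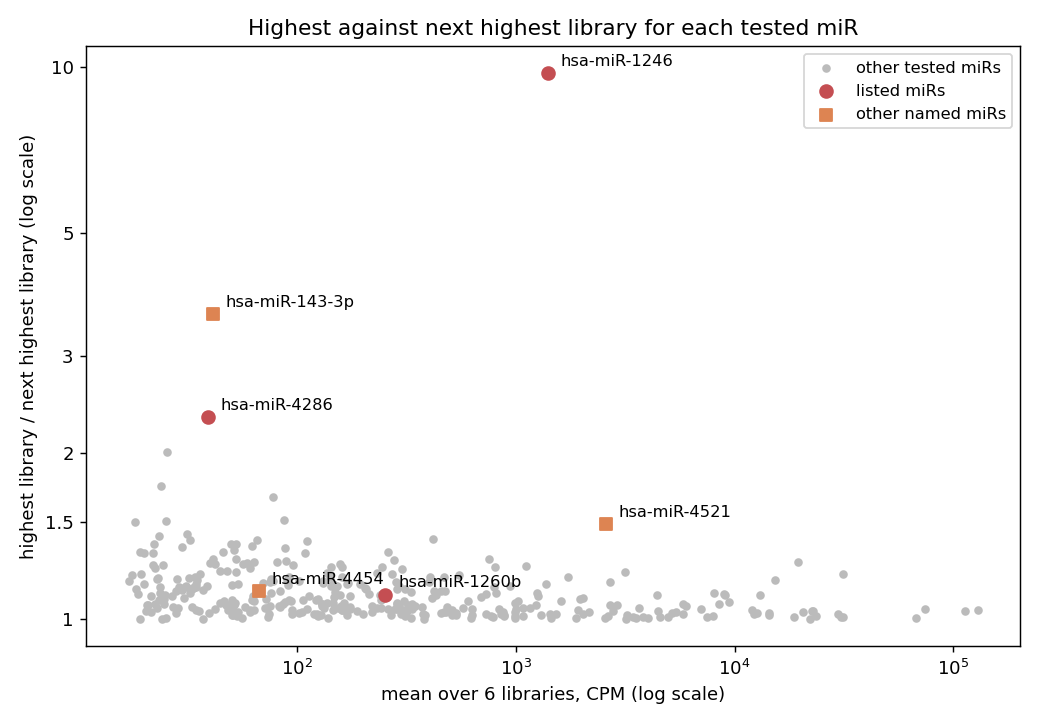
Ratio of the highest to the next highest library against the mean CPM over 6 libraries (log axes) for the 360 tested miRs. Hsa-miR-1246 (9.75) lies above all others, and hsa-miR-4286 (2.32) is number 3.

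Among the tRNA group, hsa-miR-1260b was the steadiest member. It had 240, 253 and 228 CPM in RPL24 KD 1, 2 and unnumbered, and 250, 287 and 260 CPM in NC 1, 2 and unnumbered. The NC values were mostly the higher, but RPL24 KD 2 lay above NC 1 and the groups overlapped. The means were 240 ± 12.5 CPM (SD, n = 3) and 266 ± 19.4 (SD, n = 3). The log2 fold change was -0.13 (95% interval -0.35 to 0.08, adjusted p = 0.502, edgeR quasi-likelihood test, Benjamini-Hochberg adjusted). The chi-square per degree of freedom was 0.32 in RPL24 KD and 0.64 in NC, within counting noise. Summed with hsa-miR-1260a, the log2 fold change was -0.17. Any reads counted under both names would be repeated in this sum.

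Hsa-miR-1260a did not pass the filter. It had 4, 4 and 2 counts after RPL24 KD and 3, 4 and 13 counts in NC, so that the unnumbered NC library held 13 of its 30 counts. Although the sequences are near-identical, hsa-miR-1260b did not stand out in that library (137 counts). Its 260 CPM there lay between 250 in NC 1 and 287 in NC 2.

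Hsa-miR-4286 was also highest in the unnumbered NC library. It had 38.4, 18.3 and 27.6 CPM in RPL24 KD 1, 2 and unnumbered, and 28, 32.5 and 89.1 CPM in NC 1, 2 and unnumbered. The unnumbered NC library stood apart, 2.32 times the next, and the other 5 libraries overlapped between groups. The log2 fold change was -0.85 (95% interval -1.83 to 0.12, adjusted p = 0.294, edgeR quasi-likelihood test, Benjamini-Hochberg adjusted). Without the unnumbered NC library it was -0.10.

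**Figure D4:**
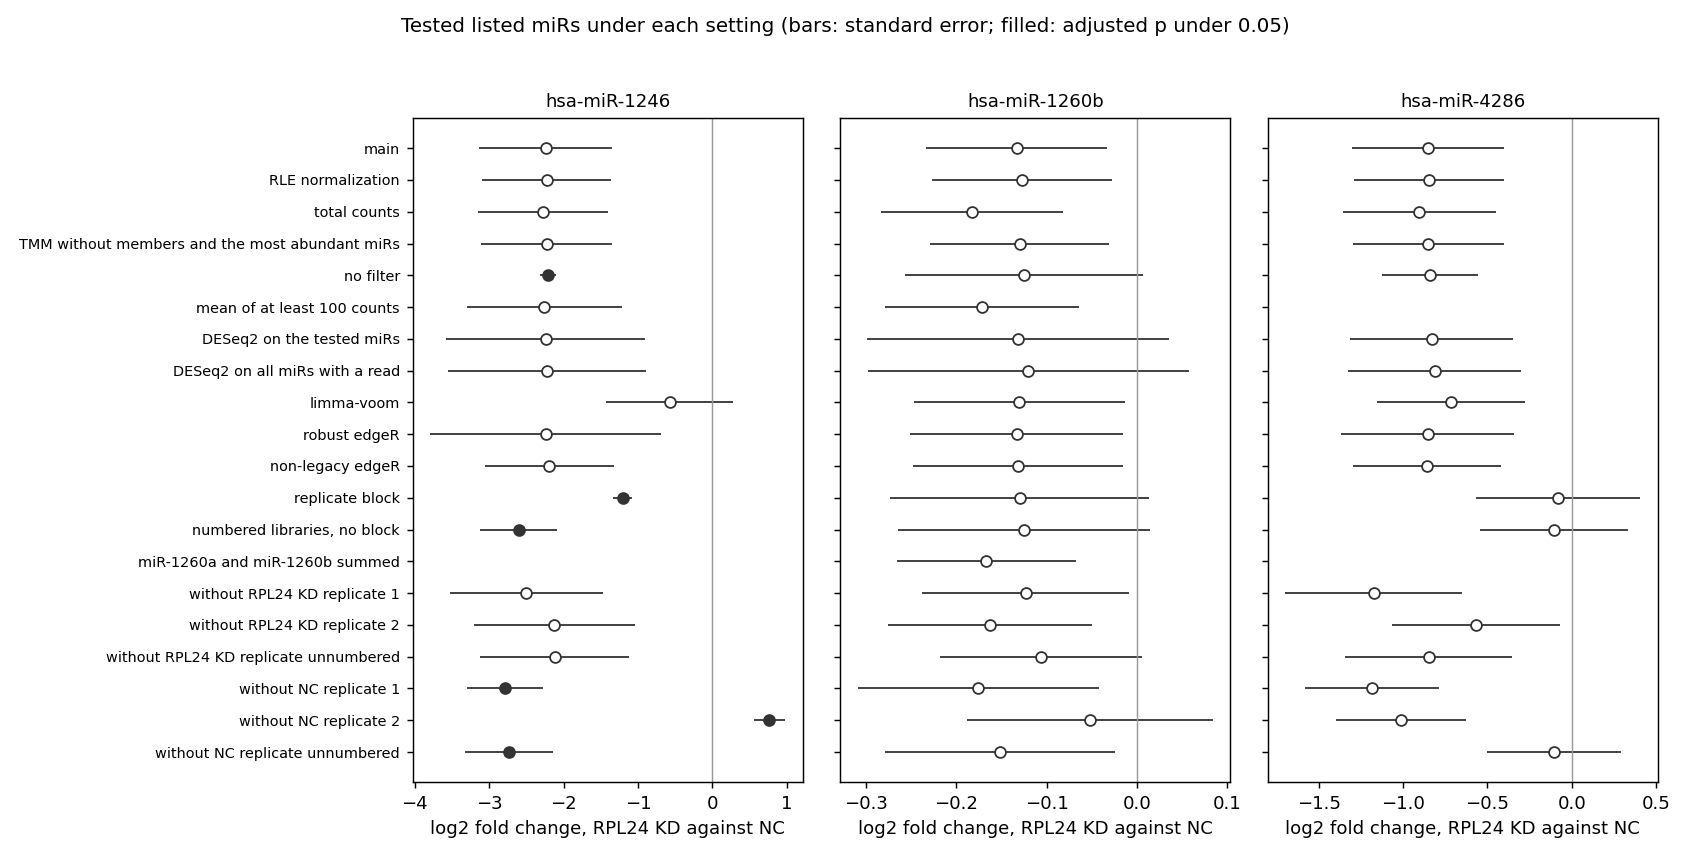
Log2 fold change, RPL24 KD against NC, of the 3 tested members under each setting (points; bars, standard error; filled, adjusted p under 0.05). Hsa-miR-1246 moves from -2.24 to 0.77 without NC 2, and hsa-miR-4286 from -0.85 to -0.10 without the unnumbered NC library.

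The snoRNA-hosted members were rare in all libraries and none passed the filter. Hsa-miR-664a-3p had 5, 12 and 3 counts after RPL24 KD and 5, 4 and 6 in NC. Hsa-miR-664a-5p had 7, 7 and 8 counts after RPL24 KD and 4, 2 and 8 in NC. The names of both arms of this hairpin were thus about equally frequent, with 35 and 36 counts over all libraries.

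The ratio of both arm counts within a library does not depend on the library size. The log2 ratio of the 3p to the 5p arm was -0.49, 0.78 and -1.42 after RPL24 KD and 0.32, 1 and -0.42 in NC. The groups overlapped. The means were -0.37 ± 1.10 (SD, n = 3) and 0.30 ± 0.71 (SD, n = 3), a difference of -0.68 (two-sided exact permutation test, p = 0.4, where 0.1 is the smallest p that 3 against 3 libraries allow).

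Hsa-miR-1248 had 0, 2 and 1 counts after RPL24 KD and 2, 0 and 0 in NC. Hsa-miR-1291 had 1, 2 and 2 counts after RPL24 KD and 3, 0 and 0 in NC. Both were at or under the floor of 3 counts in every library, so a difference was not detectable at this depth.

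A further 16 miR names, grouped here with snoRNA, tRNA, rRNA or mitochondrial RNA, were examined in the same way, and 1 of them passed the filter. They were listed by name, and not all had an exact match in the structured RNA transcripts searched. Hsa-miR-4454, grouped with tRNA, had 65.8, 46.6 and 62.6 CPM after RPL24 KD and 71.7, 72.5 and 81.5 CPM in NC. The groups did not overlap, but the log2 fold change of -0.38 did not pass the test (adjusted p = 0.338, edgeR quasi-likelihood test, Benjamini-Hochberg adjusted). By position, 10 miR names had a hairpin overlapping an annotated structured RNA gene, and 1 of them was tested. This was hsa-miR-4521, whose position overlaps the serine tRNA gene TRS-GCT4-3. The strand had to match for the other structured RNA genes but was not compared for tRNA genes. Hsa-miR-4521 had 2370, 2418 and 2545 CPM after RPL24 KD and 2381, 2027 and 3784 CPM in NC. Like hsa-miR-4286, hsa-miR-1260a and hsa-miR-4454 it was highest in the unnumbered NC library, while hsa-miR-1260b was highest in NC 2. That unnumbered library was the highest for 86 of the 360 tested miRs. The log2 fold change of hsa-miR-4521 was -0.16 (adjusted p = 0.649, same edgeR test with Benjamini-Hochberg adjustment).

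Without hsa-miR-1246, the members together took between 0.0290% and 0.0349% of the counts in 5 libraries and 0.0411% in the unnumbered NC library. With it, they took from 0.0510% to 0.0942% in 5 libraries and 0.673% in NC 2.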

How the data were processed

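The authors checked reads with FastQC 0.11.9, trimmed them with Flexbar, aligned them to miRBase with miRExpress, and deposited raw read counts for each mature miR, 1 column per library. The small RNA libraries were made from total RNA of HEK293T cells. Samples were grouped by their labels; 2 count columns whose number matches no label were used as unnumbered members of their group.

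The groups were compared in edgeR 4.0.16 (R 4.3.3) by its quasi-likelihood test, with TMM, the filterByExpr filter (minimum count 10), no replicate block, Benjamini-Hochberg adjustment over the 360 tested miRs and a threshold of 0.05. The fit used glmQLFit in its default (legacy) mode after dispersion estimation. The non-legacy mode was also run; it was added after the data were seen, and the default was kept with both counts of DE miRs known. DESeq2 1.42.0 and limma-voom (limma 3.58.1) were alternatives. Libraries held 398721 to 611745 counts. Exact binomial intervals (95%) were used for shares. Structured RNAs and hairpins came from GENCODE 29 (GRCh38), and tRNA gene positions from RefSeq.

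All members were named, with other structured names that passed the filter and the 3 miRs most like the most abundant member. The members and lists were chosen with earlier results of these data known.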

Additional observations from a re-analysis of the deposited data

How the results depend on the processing

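The 21 DE miRs became 32 with total counts, 32 with robust edgeR and 51 with the replicate block in the 4 numbered libraries, which gave 28 (12 higher, 16 lower) without the block. DESeq2 gave 14 (10 higher, 4 lower) on the tested miRs and 15 (11 higher, 4 lower) on all miRs with a read. There were from 5 to 32 without one library; the lowest came without RPL24 KD replicate 2 and the highest without the unnumbered NC library. The non-legacy edgeR fit, added after the data were seen, gave 18 (12 higher, 6 lower). The 0 members called became 1, hsa-miR-1246, without a filter, with the replicate block and with the 4 numbered libraries without a block (also added). Leaving out each library in turn gave 0 to 1 members called. Between the libraries numbered 1, hsa-miR-1246 was higher after RPL24 KD, and between those numbered 2 it was lower. Its fold change with the replicate block combines these opposite changes. The log2 fold change of hsa-miR-1246 was -2.20 without a filter, -1.20 with the replicate block, -2.60 in the numbered libraries, -0.57 with limma-voom and -2.19 (adjusted p = 0.145) with non-legacy edgeR. Leaving out each library in turn, it ran from -2.79 (without NC replicate 1) to 0.77, reversed, without NC replicate 2; DESeq2 gave it no p-value. Hsa-miR-1260b and hsa-miR-4286 were called under no setting, and hsa-miR-4286 was not tested at a mean of at least 100 counts. The miR-664a arm difference was -0.51 with 1 count added, -0.51 with the replicate block and between -1.25 and -0.16 without one library. The correlation of deviations between the libraries numbered 1 and 2 as in the labels was -0.02. With so few libraries in each group, this value cannot decide whether these 4 libraries were paired. The unnumbered libraries share a column number that no label has and were not part of this check. The causes of these changes were not tested.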

Other observations

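Outside the listed names, hsa-miR-6516-5p and hsa-miR-6516-3p, whose hairpin overlaps the scaRNA gene SCARNA16, had 30 and 9 counts over all 6 libraries. Of the rRNA and mitochondrial names, hsa-miR-3687 had 34 counts, hsa-miR-4461 22 and hsa-miR-4485-3p 15. None of them passed the filter. Hsa-miR-4461 had 0, 3 and 3 counts after RPL24 KD and 5, 5 and 6 in NC, near the floor of 3 counts. Hsa-miR-3687 (19 counts against 15 in NC) and hsa-miR-4485-3p (8 against 7) had slightly more counts after RPL24 KD. None of these names was tested in the main comparison.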
